A study of Rattus norvegicus with 12 samples.

Results

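TDP-43 + EA + Eda (Group 4) was compared with Control (Group 1) over all genes in 1464R cells, an immortalized neural stem cell line from the adult rat. The comparison used 6 of the 12 RNA sequencing libraries of the study, 3 of each group. Each table listed 32883 genes, of which 19455 had a count in any library and 13230 had enough counts to be tested. All cells had been differentiated for 4 days in medium with retinoic acid, moved to serum-free medium with retinoic acid and harvested 48 h later, and the vehicle, 0.1% DMSO, was common to all groups. Control cells received nothing else. TDP-43 + EA + Eda cells received, together with the change of medium, adenovirus coding for TDP-43 and 50 μmol/L edaravone, and 24 h later 20 μmol/L ethacrynic acid for a further 24 h. The study's methods describe adenoviruses for DsRed-tagged human full-length TDP-43 and for its C-terminal fragment, used at 50 infectious units per cell, while the sample labels name the fragment only. No library carried an empty virus, and virus, ethacrynic acid and edaravone all differed between these groups, so their parts in any difference cannot be told apart. The Eda group (edaravone alone) and the TDP-43 + EA group (virus and ethacrynic acid without edaravone), 3 libraries each, shared the fit and are given beside the main comparison. The study describes its sequencing samples as coming from separate experiments, and the labels do not tie a library to an experiment or culture, so the p-values measure the spread between these libraries.

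TDP-43 is an RNA-binding protein of the nucleus that forms cytoplasmic inclusions in amyotrophic lateral sclerosis. Ethacrynic acid is an electrophile that conjugates with glutathione and other thiols. Electrophiles release the transcription factor Nrf2 from its inhibitor Keap1, and Nrf2 then binds antioxidant response elements at genes of glutathione, thioredoxin, heme and iron metabolism. Unfolded proteins in the cytosol free the heat shock factor Hsf1, which induces Hsp70, Hsp90 and their cochaperones. Translation blocked by kinases of eIF2alpha favours synthesis of ATF4, whose targets include Ddit3 (CHOP), amino acid transporters and Trib3. Edaravone is a radical scavenger used in amyotrophic lateral sclerosis.

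Control libraries held 20.80 to 23.12 M (mega) counts and those of TDP-43 + EA + Eda 43.91, 17.42 and 19.66 M, which are also the ends of the range over all 12 libraries. Levels below are CPM (counts per M counts) scaled with the trimmed mean of M-values (TMM), whose factors were 1.036 to 1.088 for the Control libraries and 0.829 to 0.860 for the others. The labels call the differentiated cells motor neuron-like, and the defining markers of motor neurons did not bear this out. The motor neuron genes Mnx1, Slc18a3 and Slc5a7 had no count in the 6 libraries, Chat and Isl1 stayed at or under 0.0835 CPM, and the neuronal genes Stmn2 and Prph had no count. The 2 motor neuron genes with enough counts to be tested summed to 1.07 to 1.95 CPM across Control libraries. Other general neuronal genes were present, and the 13 tested of 18 summed to 756 to 911 CPM across Control libraries. Mbp, a gene of myelinating oligodendrocytes, was among the most abundant in Control, at 20584, 18817 and 24199 CPM. In bulk RNA, fewer cells of a type and less RNA per cell cannot be told apart.

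Tardbp, the rat gene for TDP-43 (ENSRNOG00000012455, chr5:165432095-165442048, minus strand, Rnor_6.0), was at 37.1, 39.2 and 41.1 CPM in Control and at 3672, 2045 and 2000.5 CPM in TDP-43 + EA + Eda. All 3 libraries labelled as infected lay above all Control libraries, and the first was the highest. The difference was 6.04 on the log2 scale (SE 0.26, edgeR adjusted p = 1.7e-10). Reads of the human transgene may have been assigned to this rat gene. In TDP-43 + EA the gene was at 1796, 1245 and 1087 CPM, and TDP-43 + EA + Eda was higher than that group by 0.9 (SE 0.21, edgeR adjusted p = 0.0044).

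Expression differed between the groups over a wide range of genes. By edgeR's quasi-likelihood test at the 0.05 level after Benjamini-Hochberg adjustment, 3581 genes were higher (27.1% of those tested) and 4027 lower (30.4%) in TDP-43 + EA + Eda. With the study's further condition, a log2 fold change of 1 or more in either direction, there were 3158 differentially expressed genes (DEGs), 1673 higher (12.6% of those tested) and 1485 lower (11.2%). The study applied that condition to shrunken fold changes from DESeq2, whereas here it was applied to the fold changes of edgeR without shrinkage. The rises reached further than the falls. Among DEGs with a change of 1 to 2 on the log2 scale 998 were higher and 1152 lower, while 135 were higher and 37 lower by 5 or more. All 3 libraries of one group lay above all 3 of the other at 3830 genes in the higher direction (28.9%) and at 4353 in the lower (32.9%). Of the DEGs, 52.98% were higher under TMM but 30.6% (1173 higher, 2666 lower) when library totals alone set the scale. That change of scale moved the median log2 fold change of all genes from −0.08 to −0.40, so for small changes that passed the test the value under library totals is given where its sign differs. Below, the values in brackets after a gene's levels are its log2 fold change against Control and its standard error (SE), and genes said to rise or fall passed the edgeR test at an adjusted p of 0.05 without regard to the size of the change. In 17 alternative settings together, 2667 DEGs (1408 higher and 1259 lower) were called in the same direction each time. Counts of list members that rose or fell are to be read beside these shares of all genes, 27.1% higher and 30.4% lower.

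**Figure D1:**
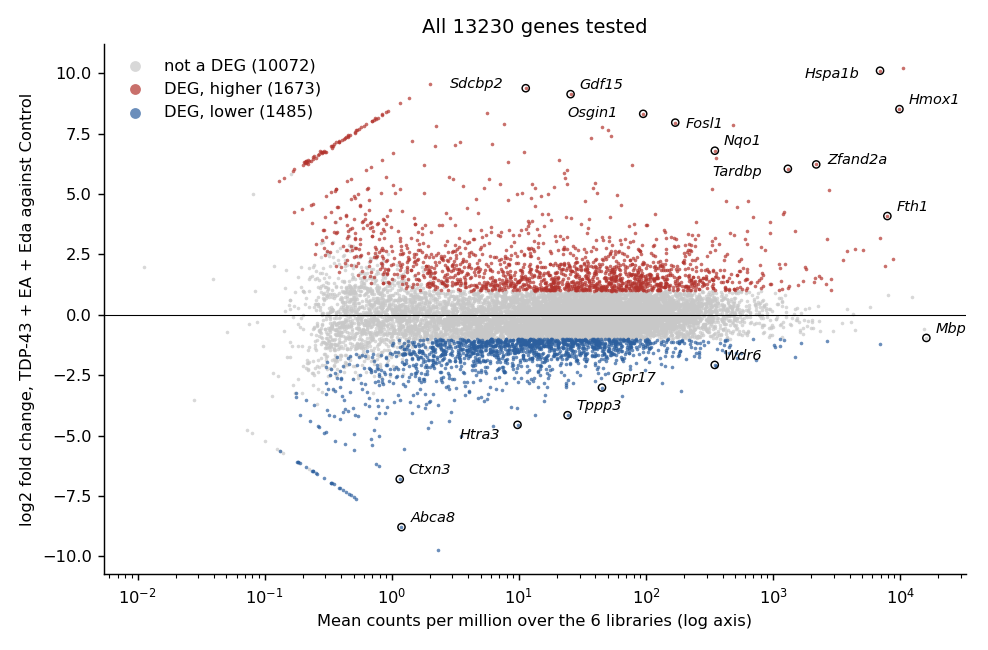
Each point is 1 of the 13230 genes tested, with its mean CPM over the 6 libraries on a log axis and its log2 fold change, TDP-43 + EA + Eda against Control, on the y axis. The 1673 higher DEGs reach further from 0 than the 1485 lower ones, and the circled genes are among those described in the text; the straight rows of points at the left are genes with no count in one group, whose fitted change is no bound.

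Heat shock genes of the cytosol included the largest rise among genes with at least 50 counts. Of the 32 cytosolic chaperone and cochaperone genes tested, 25 rose and 4 fell, against 27.1% and 30.4% of all genes, and the median log2 fold change of the list was 1.85 (all genes, −0.08). Hspa1b, an inducible Hsp70 (ENSRNOG00000050647, chr20:4877324-4879779, minus strand, Rnor_6.0), was at 12.4, 12.9 and 12.6 CPM in Control and 18069, 10719 and 12794 CPM in TDP-43 + EA + Eda, a change of 10.1 on the log2 scale (SE 0.22, edgeR adjusted p = 3.3e-13). LOC108348108, a near-identical copy annotated as its own gene, went from 16.6, 19.7 and 17.4 CPM to 26471, 16687 and 20439 CPM, and reads cannot be divided with certainty between them. The Hsp110 gene Hsph1, a nucleotide exchange factor for Hsp70, was at 150, 146 and 154 CPM in Control and 7128, 3661 and 5128 CPM with virus, ethacrynic acid and edaravone (5.14, SE 0.21, edgeR adjusted p = 1.2e-10). For these genes the first TDP-43 + EA + Eda library was the highest and the second the lowest, and none overlapped Control.

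Partners of Hsp70 rose along with it. Bag3, which couples Hsp70 clients to selective autophagy, was at 16.2, 19.4 and 16.5 CPM in Control and 823, 517 and 593 CPM in TDP-43 + EA + Eda (5.21, SE 0.17). Dnajb1, a J-domain protein that delivers clients to Hsp70, rose from 123, 128 and 123 CPM to 2347, 2134 and 2300.3 CPM (4.18, SE 0.15). The small heat shock protein gene Cryab rose from 102, 70.5 and 63.8 CPM to 1616, 1181 and 1110.4 CPM (4.05, SE 0.26). Hspb1, another small heat shock protein gene, had no count in Control and 1.02, 0.868 and 0.534 CPM in TDP-43 + EA + Eda, at least 6.24-fold higher when Control is set to 3 counts per library. Among Hsp90 genes and cochaperones 8 of 9 rose, among them Hsp90aa1, the stress-inducible Hsp90 (3.45, SE 0.14), and Hsp90ab1, the constitutive one (2.27, SE 0.09). Hsf1 itself rose by 0.56 (SE 0.11, edgeR adjusted p = 0.00057), a call that was lost under library totals (0.23; 0.13). The members that fell were Hspa2, an Hsp70 best known from the testis, at 696, 686 and 824 CPM in Control and 454, 381 and 401 CPM in TDP-43 + EA + Eda (−0.84, SE 0.13), Dnajb5 (−1.24, SE 0.21), the exchange factor Hspbp1 (−0.58, SE 0.1) and Hspb6 (−0.52, SE 0.19), the last of which overlapped Control and was no longer called when any of 4 single libraries, Control 1 or 2 or TDP-43 + EA + Eda 1 or 3, was left out (−0.42 to −0.48, highest edgeR adjusted p = 0.10).

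The promoters of 3 chaperone genes are shown because heat shock genes led the comparison and the heat shock element is a short repeat that can be seen in the letters. A search of windows from 250 bases before to 50 bases after each start in the RefSeq annotation of build GRCr8, for the core GAANNTTC or TTCNNGAA (each its own reverse complement), found a match in 14 of 26 chaperone genes with a window (53.8%). The share was 11.2% among 9551 windows of all genes tested and 15.4% among all 27457 windows, and a match is a description of letters, not a bound site. Hspa2 and Hspb6, which fell, were among the 14. The sequences are the 250 bases before the start, 5′ to 3′ on the gene's strand, with the matches in capitals. They were chosen after their values were seen, as the members of largest fitted change whose 250 bases hold a match. For Hspb1, without a count in Control, the fitted change is no bound, so its rank is uncertain.
Hspb1: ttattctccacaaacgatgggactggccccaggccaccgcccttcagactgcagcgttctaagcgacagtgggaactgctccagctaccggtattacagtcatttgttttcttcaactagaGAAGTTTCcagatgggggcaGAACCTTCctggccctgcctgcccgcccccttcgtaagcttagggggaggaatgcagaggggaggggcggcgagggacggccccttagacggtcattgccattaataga
Bag3: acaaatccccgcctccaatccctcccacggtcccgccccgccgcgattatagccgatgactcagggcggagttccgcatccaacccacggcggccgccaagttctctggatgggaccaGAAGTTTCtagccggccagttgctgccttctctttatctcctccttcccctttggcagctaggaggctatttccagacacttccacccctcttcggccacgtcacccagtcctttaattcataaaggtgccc
Hsph1: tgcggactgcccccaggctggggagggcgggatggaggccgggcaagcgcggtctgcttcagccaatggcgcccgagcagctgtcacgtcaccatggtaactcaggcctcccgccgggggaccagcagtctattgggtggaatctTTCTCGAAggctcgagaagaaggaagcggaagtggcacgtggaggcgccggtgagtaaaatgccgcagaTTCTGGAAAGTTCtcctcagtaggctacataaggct
These lie at chr12:26432302-26432551 (minus strand, GRCr8) for Hspb1, chr1:192533210-192533459 (plus strand, GRCr8) for Bag3 and chr12:10427118-10427367 (plus strand, GRCr8) for Hsph1. In Hspb1 the cores begin 129 and 109 bases before the start, and in Bag3 132 bases before it. Hsph1 holds 3 matches, one beginning 105 bases before the start and an overlapping pair beginning 36 bases before it.

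**Figure D2:**
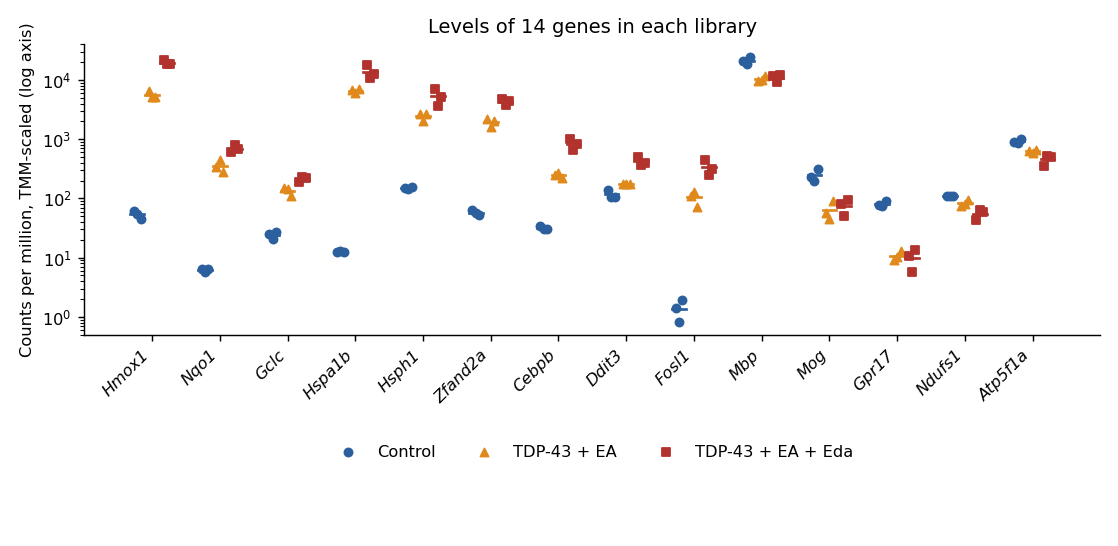
Level of 14 genes in each library of TDP-43 + EA + Eda, TDP-43 + EA and Control, in TMM-scaled CPM on a log axis, where each symbol is 1 library and each short line the mean of 3. Chaperone and Nrf2 target genes lie lowest in Control, as Hmox1 does at 44.8 to 61.4 CPM against 18448 to 22036 CPM in TDP-43 + EA + Eda, and the myelin genes Mbp and Mog lie highest in Control.

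Ubiquitin and the machinery of protein degradation rose as well. Zfand2a, an AN1-type zinc finger protein that binds the proteasome and is induced by heat and arsenite, was at 64.5, 55.7 and 53.05 CPM in Control and 4739, 3705 and 4485 CPM in TDP-43 + EA + Eda (6.22, SE 0.16, edgeR adjusted p = 7.3e-13). The polyubiquitin gene Ubb took 0.319% of all counts in Control (SD 0.0115, n = 3) and 1.03% in TDP-43 + EA + Eda (SD 0.153, n = 3). Of the 9 genes of this list 8 rose and none fell, and the segregase gene Vcp rose by 1.19 (SE 0.07). Of 30 proteasome subunits 23 rose and none fell, with a list median of 0.50, but under library totals 14 rose and 5 fell, and 1 fell without TDP-43 + EA + Eda replicate 2. Rises that held under both scales included Psmd1, a scaffold of the regulatory cap, at 299.6, 279.6 and 282 CPM in Control and 654, 597 and 569.5 CPM in TDP-43 + EA + Eda (1.08, SE 0.08), and Psma5 of the core (0.97, SE 0.09). The cap gave 15 rises among 17 genes and the core 8 among 13. All 10 chaperonin genes rose (list median 1.14), led by the mitochondrial pair Hspe1 (1.86, SE 0.15) and Hspd1 (1.48, SE 0.12).

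Targets of Nrf2 formed another leading group. Of 42 genes of the Nrf2 pathway tested 33 rose and 3 fell, and the list median was 2.02. Hmox1, heme oxygenase 1, which breaks heme down to biliverdin, iron and carbon monoxide (ENSRNOG00000014117, chr19:14508616-14515456, plus strand, Rnor_6.0), was at 61.4, 55.6 and 44.8 CPM in Control and 22036, 18511 and 18448 CPM in TDP-43 + EA + Eda. The groups were far apart, with a log2 fold change of 8.51 (SE 0.2, edgeR adjusted p = 3.3e-13), and the gene's share of all counts was 0.00572% in Control (SD 0.000956, n = 3) and 1.67% in TDP-43 + EA + Eda (SD 0.138, n = 3). Nqo1, a quinone reductase, went from 6.53, 5.68 and 6.50 CPM to 601, 795 and 673 CPM (6.79, SE 0.18), and Osgin1, an oxidative stress-induced growth inhibitor, from 0.451, 0.2504 and 1.11 CPM to 175, 165 and 228 CPM (8.31, SE 0.36). Akr1b8, an aldo-keto reductase, was at 0.0821, 0.417 and 0.0928 CPM in Control and 26.1, 23.7 and 15.7 CPM in TDP-43 + EA + Eda (6.73, SE 0.47).

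Within the pathway all 6 regulators rose. Nfe2l2, which codes for Nrf2, was at 57.4, 45.5 and 41.9 CPM in Control and 409, 319 and 341 CPM in TDP-43 + EA + Eda (2.88, SE 0.13, edgeR adjusted p = 3.4e-10). Its small Maf partners rose by 5.85 (Maff, SE 0.29), 3.18 (Mafk, SE 0.13) and 2.87 (Mafg, SE 0.1). The repressors rose too, Bach1 from 40.3, 39.7 and 43.2 CPM to 185, 149 and 141 CPM (1.95, SE 0.15) and Keap1 from 65.7, 72.2 and 68.3 CPM to 119.6, 127 and 114 CPM (0.81, SE 0.09). In none of these 6 genes did a TDP-43 + EA + Eda library overlap Control.

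Genes for glutathione and cystine followed. Slc7a11, the cystine importer, was at 0.410, 1.34 and 1.07 CPM in Control and 36.3, 38.6 and 34.7 CPM in TDP-43 + EA + Eda (5.28, SE 0.5). Gclc, the catalytic subunit of the enzyme that limits glutathione synthesis, went from 24.7, 21.03 and 27.01 CPM to 192, 232 and 222 CPM (3.15, SE 0.14), and its modifier subunit Gclm from 41.6, 47.8 and 45.8 CPM to 196, 223 and 218 CPM (2.24, SE 0.12). Gss, which performs the next step of synthesis, did not pass the test (0.23, SE 0.14, edgeR adjusted p = 0.18). Gsr, glutathione reductase, rose by 3.13 (SE 0.14), and Txnrd1, thioredoxin reductase 1, by 3.13 (SE 0.12). Of 13 genes of glutathione metabolism tested 8 rose and none fell. Gpx4, which reduces lipid peroxides, was at 301, 302 and 279 CPM in Control and 324, 339 and 307 CPM in TDP-43 + EA + Eda and did not pass the test (0.14, SE 0.07, edgeR adjusted p = 0.12).

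Iron storage rose with heme oxygenase. The row named Fth1, ferritin heavy chain, was at 966, 869 and 810.1 CPM in Control and 14388, 16443 and 14059 CPM in TDP-43 + EA + Eda (4.09, SE 0.14), and Ftl1, ferritin light chain, went from 1276, 1070.0 and 1136 CPM to 7306, 8396 and 7028 CPM (2.71, SE 0.11). Ferritin genes have many pseudogene copies, so which copy the reads came from is uncertain. Together the ferritin rows Fth1, Ftl1 and LOC100360087 held 0.360% of counts in Control (SD 0.0276, n = 3) and 2.66% in TDP-43 + EA + Eda (SD 0.280, n = 3). The members that fell were Blvra, which turns biliverdin into bilirubin, at 38.04, 38.4 and 29.8 CPM in Control and 23.9, 28.3 and 22.6 CPM in TDP-43 + EA + Eda (−0.51, SE 0.14, edgeR adjusted p = 0.0054), with Idh1 (−0.42, SE 0.15) and Glrx (−0.73, SE 0.25). Idh1 was not called without Control replicate 3 (−0.30, edgeR adjusted p = 0.13) or TDP-43 + EA + Eda replicate 2 (−0.27, 0.12), nor Glrx without Control replicate 2 (−0.62, 0.075) or TDP-43 + EA + Eda replicate 3 (−0.49, 0.088). In contrast Blvrb, a biliverdin reductase of another specificity, rose by 1.92 (SE 0.14).

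The core of the antioxidant response element, TGACNNNGC on either strand, stood in the 300-base windows of 10 of 35 Nrf2 pathway genes (28.6%), against 14.9% of the windows of genes tested and 12.2% of all windows. This share was not particular to the list, as 7 of 23 targets of ATF4 and CHOP (30.4%) held the same core. Idh1 and Blvra, which fell, were among the 10. The 250 bases before the start are printed for Mafk and Me1, chosen by the same rule as above, with the core in capitals as it reads on the gene's strand.
Mafk: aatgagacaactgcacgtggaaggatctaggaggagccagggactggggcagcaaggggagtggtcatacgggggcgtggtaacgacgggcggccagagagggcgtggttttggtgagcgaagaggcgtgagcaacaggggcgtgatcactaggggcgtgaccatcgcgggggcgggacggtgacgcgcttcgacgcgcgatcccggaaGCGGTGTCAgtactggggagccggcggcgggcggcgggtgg
Me1: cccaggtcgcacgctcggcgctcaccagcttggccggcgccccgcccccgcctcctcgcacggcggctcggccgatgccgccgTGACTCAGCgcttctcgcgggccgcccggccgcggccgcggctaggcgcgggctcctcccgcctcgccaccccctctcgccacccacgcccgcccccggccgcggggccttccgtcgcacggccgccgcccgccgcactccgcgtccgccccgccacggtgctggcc
They lie at chr12:19959193-19959442 (minus strand, GRCr8) for Mafk, with the core beginning 41 bases before the start, and at chr8:96540245-96540494 (minus strand, GRCr8) for Me1, with the core 167 bases before it. Me1, cytosolic malic enzyme and a source of NADPH, was at 63.4, 59.9 and 72.03 CPM in Control and 324, 417 and 364 CPM in TDP-43 + EA + Eda (2.5, SE 0.11). The windows of Nqo1, Osgin1 and Gclc do not hold these letters.

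Among 24 targets of ATF4 and CHOP tested 18 rose and 1 fell, with a list median of 1.04. Ddit3, which codes for CHOP, was at 140.2, 107 and 104 CPM in Control and 502, 363 and 400.3 CPM in TDP-43 + EA + Eda (1.85, SE 0.13, edgeR adjusted p = 1.6e-08). Atf4 itself went from 367, 331 and 304 CPM to 749.8, 711 and 673 CPM (1.09, SE 0.1), and Cebpb, a dimer partner of CHOP, from 34.4, 30.3 and 30.6 CPM to 988, 661 and 814 CPM (4.69, SE 0.14). Atf3 was already at 849, 917 and 827 CPM in Control and overlapped it in TDP-43 + EA + Eda at 1246, 880.2 and 918 CPM (0.23, SE 0.11, edgeR adjusted p = 0.086). The secreted factor Gdf15 was at 0.0410, 0.209 and 0 CPM in Control and 62.05, 40.4 and 50.3 CPM in TDP-43 + EA + Eda (9.13, SE 0.52).

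The transport and synthesis arms of this program differed in their counts, which rest on 5 and 6 genes. All 5 amino acid transporter genes tested rose, among them Slc38a2, a carrier of small neutral amino acids (2.21, SE 0.09), and Slc3a2, the heavy chain shared by several exchangers (1.91, SE 0.11). Of 6 genes of serine, glycine and asparagine synthesis 3 rose and 1 fell, where 27.1% and 30.4% of all genes did. Psat1, of serine synthesis, was at 285, 278 and 310.3 CPM in Control and 192, 184 and 207 CPM in TDP-43 + EA + Eda (−0.58, SE 0.1, edgeR adjusted p = 0.00016), and Asns, asparagine synthetase, changed by 0.25 (SE 0.1; −0.07 under library totals). The feedback regulators Ppp1r15a (Gadd34), which restores translation by dephosphorylating eIF2alpha, Trib3, Chac1 and Sesn2 rose by 2.93 (SE 0.16), 1.31 (SE 0.14), 1.15 (SE 0.15) and 0.97 (SE 0.11).

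Several of these genes lay close to Control in the cells without edaravone. In TDP-43 + EA the log2 fold changes against the same Control libraries were 0.03 for Chac1 (edgeR adjusted p = 0.92), 0.09 for Sesn2 (0.54) and 0.22 for Atf4 (0.087). Chac1, which degrades glutathione, was at 26.9, 41.9 and 33.3 CPM in TDP-43 + EA, overlapping Control at 36.6, 35.1 and 28.5 CPM, against 82.1, 66.4 and 73.2 CPM in TDP-43 + EA + Eda. Tested directly, TDP-43 + EA + Eda exceeded TDP-43 + EA by 1.12 (SE 0.15, edgeR adjusted p = 0.00012) for Chac1, 1.27 (SE 0.12, 1e-05) for Ddit3 and 1.73 (SE 0.12, 1.6e-06) for Cebpb. By that test 19 of the 24 targets were higher with edaravone and none lower, where 15.4% of all genes were higher and 15.0% lower. The matching counts were 30 higher and 1 lower of 42 Nrf2 pathway genes, and 23 higher and 1 lower of 32 chaperone genes.

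**Figure D3:**
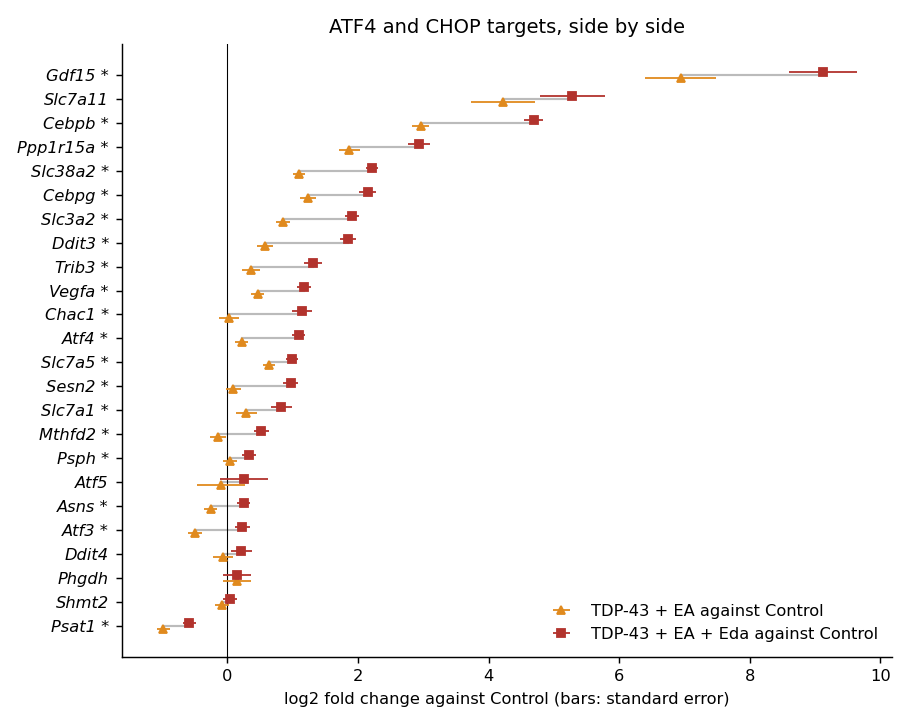
Log2 fold changes against Control of the 24 ATF4 and CHOP targets tested, for TDP-43 + EA (triangles) and TDP-43 + EA + Eda (squares), with bars for 1 standard error; both rest on the same 3 Control libraries. An asterisk marks genes that differ between the TDP-43 + EA + Eda and TDP-43 + EA libraries themselves at an adjusted p of at most 0.05, as Chac1 does (0.03 against 1.15).

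The amino acid response element, TGATGNAA on either strand, was found in the windows of 3 of 23 ATF4 and CHOP targets (13.0%), 1.87% of the windows of genes tested and 3.82% of all windows. The bases before the start of Trib3 and Chac1 are shown, both carrying the element on the reverse strand, with the matches in capitals.
Trib3: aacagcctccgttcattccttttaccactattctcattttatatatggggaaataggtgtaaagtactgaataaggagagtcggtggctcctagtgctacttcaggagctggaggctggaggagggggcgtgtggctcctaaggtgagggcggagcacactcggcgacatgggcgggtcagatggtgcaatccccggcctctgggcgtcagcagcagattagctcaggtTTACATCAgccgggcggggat
Chac1: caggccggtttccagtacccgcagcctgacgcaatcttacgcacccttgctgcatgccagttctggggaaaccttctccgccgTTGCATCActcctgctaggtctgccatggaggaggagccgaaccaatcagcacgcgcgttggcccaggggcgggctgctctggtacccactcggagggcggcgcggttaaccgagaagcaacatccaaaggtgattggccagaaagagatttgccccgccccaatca
Their positions are chr3:161275534-161275783 (minus strand, GRCr8) for Trib3, where the match begins 21 bases before the start, and chr3:126795881-126796130 (plus strand, GRCr8) for Chac1, where it begins 167 bases before it. With 3 matches in all, the share rests on few genes.

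Chaperones and folding enzymes of the endoplasmic reticulum did not move together. Of 26 genes tested 10 rose and 9 fell (list median −0.08), shares not far from the 27.1% and 30.4% of all genes. Under library totals 6 rose and 14 fell. Dnajb9, a cochaperone that represses the sensor Ire1, was at 52.1, 50.1 and 46.7 CPM in Control and 273, 157 and 194 CPM in TDP-43 + EA + Eda (2.07, SE 0.18), and Hspa5 (BiP), the main Hsp70 of this compartment, went from 738, 728 and 792 CPM to 1892, 1429 and 1433 CPM (1.07, SE 0.1). Lower were Sdf2l1, a BiP cofactor, from 38.2, 40.9 and 43.7 CPM to 17.6, 22.2 and 18.7 CPM (−1.07, SE 0.12), the disulfide isomerase Pdia6 (−0.85, SE 0.1) and Xbp1, the transcription factor activated by Ire1 splicing (−0.54, SE 0.12, edgeR adjusted p = 0.0016). Chaperones (5 up, 3 down), disulfide isomerases (2 and 2) and degradation factors (2 and 3) each held both directions.

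Of 24 immediate early genes 17 rose, and the list median was 2.18. Fosl1 (Fra-1), a partner of Jun in AP-1, was at 1.40, 0.835 and 1.90 CPM in Control and 449, 252 and 314 CPM in TDP-43 + EA + Eda (7.95, SE 0.32, edgeR adjusted p = 1.2e-10). Ier3 went from 3.73, 5.43 and 3.34 CPM to 1104, 916 and 857 CPM (7.84, SE 0.4), Egr1 from 7.71, 12.02 and 3.71 CPM to 921, 494 and 693 CPM (6.48, SE 0.41) and Junb from 40.01, 47.5 and 51.9 CPM to 1501, 935 and 1227 CPM (4.72, SE 0.23). The family was not uniform. Fos was at 549, 418 and 499 CPM in Control and 543, 466 and 497 CPM in TDP-43 + EA + Eda, overlapping throughout (0.04, SE 0.11, edgeR adjusted p = 0.77), and Jund did not pass the test either (−0.07, SE 0.14, 0.72). Jun (−0.38, SE 0.15, 0.048) and Egr2 (−0.41, SE 0.16, 0.036) passed it in the lower direction by a small margin, and leaving out single libraries left neither or only one of them called in each of the 6 fits. Egr3 had no count in Control and 0.797, 0.467 and 1.30 CPM in TDP-43 + EA + Eda, at least 6.63-fold higher at 3 counts per Control library.

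Genes that dampen MAP kinase signalling, themselves induced by it, rose with the early genes in 13 of 16 cases (list median 1.49; 2 fell). Dusp5, a nuclear phosphatase of ERK, was at 0.533, 0.960 and 0.557 CPM in Control and 32.4, 20.2 and 26.2 CPM in TDP-43 + EA + Eda (5.25, SE 0.32), and Spry4, a Sprouty inhibitor of receptor tyrosine kinase signalling, went from 0.780, 0.584 and 0.371 CPM to 18.5, 15.3 and 22.4 CPM (4.99, SE 0.38). All 6 Sprouty and Spred genes rose. The exceptions among phosphatases were Dusp7 (−0.8, SE 0.19) and Dusp14 (−0.82, SE 0.19), which fell, and Dusp10, at 312, 272 and 276 CPM in Control and 272, 277 and 304 CPM in TDP-43 + EA + Eda (−0.01, SE 0.09, edgeR adjusted p = 0.93).

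Of 24 NF-kB targets and cytokines 14 had enough counts to be tested, of which 12 rose, none fell and 2 did not pass the test, while under library totals 9 rose and 1 fell. Socs1, an inhibitor of JAK kinases, was at 0.492, 0.501 and 0.511 CPM in Control and 139.7, 59.7 and 100.04 CPM in TDP-43 + EA + Eda (7.63, SE 0.44, edgeR adjusted p = 2.9e-09), and Nfkbia, the inhibitor of NF-kB, went from 56.1, 60.1 and 50.96 CPM to 178, 146 and 156 CPM (1.52, SE 0.14). The cytokine genes Il1b and Tnf had no count in either group, and Il6 had counts in 1 library only. Of 16 interferon-stimulated genes tested 3 rose and 6 fell (list median −0.58), shares not far from the 27.1% and 30.4% of all genes. Irf1 rose from 6.98, 10.02 and 7.75 CPM to 29.5, 34.5 and 35.2 CPM (2.0, SE 0.19), while Mx2, an antiviral GTPase, fell from 12.2, 15.3 and 15.2 CPM to 6.93, 3.47 and 5.28 CPM (−1.42, SE 0.22, edgeR adjusted p = 7.7e-05).

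Respiratory chain genes of both genomes were lower. None of 27 nuclear subunit genes rose and 21 fell, with a list median of −0.48. Atp5f1a, the alpha subunit of ATP synthase, was at 913, 851 and 1009.9 CPM in Control and 350.1, 524 and 504 CPM in TDP-43 + EA + Eda (−1.01, SE 0.13, edgeR adjusted p = 9.7e-06), and Ndufs1, the largest subunit of complex I, went from 110.3, 109 and 109 CPM to 42.6, 63.5 and 59.7 CPM (−0.99, SE 0.13). Atp5f1b, the catalytic beta subunit of ATP synthase, at 1666, 1571 and 1601 CPM in Control and 1849, 1689 and 1573 CPM in TDP-43 + EA + Eda, did not pass the test (0.08, SE 0.08, edgeR adjusted p = 0.41). Of the 13 protein genes of mitochondrial DNA 9 fell and 2 rose (list median −0.69), and their summed share of counts was 2.13% in Control (SD 0.102, n = 3) and 1.42% in TDP-43 + EA + Eda (SD 0.159, n = 3; exact permutation test, p = 0.1, the smallest that 3 against 3 allows).

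The mitochondrial transcripts changed unequally although they come from shared precursors. Mt-nd1 was at 883, 841 and 785 CPM in Control and 266, 290.0 and 290.4 CPM in TDP-43 + EA + Eda (−1.57, SE 0.11, edgeR adjusted p = 2.7e-08), and Mt-co2 went from 1655, 1551 and 1606 CPM to 651, 623 and 672 CPM (−1.31, SE 0.14). Mt-nd5 rose from 579.9, 548 and 530.4 CPM to 693, 759.7 and 731 CPM (0.4, SE 0.08; 0.08 under library totals), and Mt-co1 overlapped between the groups (0.3, SE 0.12, edgeR adjusted p = 0.042; −0.01 under library totals) and was not called without any 1 of Control 2, Control 3 or TDP-43 + EA + Eda 2 or 3. In the fits without those libraries 1 gene of the list rose.

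Genes of glycolysis went the other way, 11 of 16 rising and 4 falling (list median 1.01). Hk2, an inducible hexokinase, was at 10.7, 14.4 and 14.1 CPM in Control and 63.4, 43.8 and 64.1 CPM in TDP-43 + EA + Eda (2.13, SE 0.2, edgeR adjusted p = 5.4e-07), and Pkm, pyruvate kinase, went from 985, 1215 and 1119 CPM to 2907, 3643 and 2865 CPM (1.5, SE 0.15). Slc2a1, the glucose transporter GLUT1, rose by 1.03 (SE 0.13) and Ldha, lactate dehydrogenase A, by 1.27 (SE 0.16). The falls included Aldoc, the brain aldolase, from 141, 141 and 167 CPM to 58.8, 65.7 and 74.1 CPM (−1.18, SE 0.1), and Pfkm, the muscle form of phosphofructokinase (−1.45, SE 0.26).

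Of 18 oligodendrocyte lineage genes tested 15 fell and none rose, with a list median of −1.07, and the summed level of the list was 50697 to 65607 CPM across Control libraries and 25841 to 34634 CPM across TDP-43 + EA + Eda libraries. Mbp, myelin basic protein, was at 20584, 18817 and 24199 CPM in Control and 11699.7, 9145 and 11905 CPM in TDP-43 + EA + Eda (−0.96, SE 0.13, edgeR adjusted p = 1.5e-05), Mog, a glycoprotein of the outer myelin surface, went from 232, 197 and 311 CPM to 80.3, 51.1 and 92.3 CPM (−1.72, SE 0.25), and Gpr17, a receptor of committed precursors, from 76.9, 74 and 89.9 CPM to 10.6, 5.67 and 13.2 CPM (−3.01, SE 0.22). The groups did not overlap in these genes. Among the transcription factors Sox10 (−0.85, SE 0.13) and Olig1 (−1.34, SE 0.17) fell, and Olig2, at 345, 295 and 396 CPM in Control and 328, 232 and 290.0 CPM in TDP-43 + EA + Eda, did not pass the test (−0.28, SE 0.14, edgeR adjusted p = 0.11). Against TDP-43 + EA only Opalin (1.02, SE 0.26, edgeR adjusted p = 0.0083) and Bcas1 (0.43, SE 0.15, 0.044) of the 18 differed, both higher with edaravone, where 15.4% of all genes were higher and 15.0% lower. These 2 calls were likewise made under TMM only.

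Markers of other cell types gave mixed values beside this. Of 9 astrocyte markers 5 were tested, and Gfap fell from 258, 287 and 178 CPM to 86.3, 172 and 138 CPM (−0.87, SE 0.24, not called without the filter on low counts, where the edgeR adjusted p was 0.056) and Glul from 1256, 1032 and 1352 CPM to 629.7, 554 and 765 CPM (−0.9, SE 0.13), while Sox9, also a progenitor gene, rose from 18.2, 13.4 and 11.4 CPM to 204, 210.3 and 157 CPM (3.73, SE 0.25). The astrocyte transporters Slc1a2 and Slc1a3 and the channel Aqp4 stayed at or near 0, and summed astrocyte markers were at 1558 to 1717 CPM across Control libraries and 1049 to 1188 CPM across treated ones. Of 13 neuronal genes tested 1 rose and 4 fell, where 27.1% and 30.4% of all genes did, so that the share that fell was near the background. The largest of the 4 falls was that of Gap43, a growth cone protein, from 30.8, 27.3 and 20.4 CPM to 10.4, 5.47 and 5.28 CPM (−1.86, SE 0.25). The log2 fold changes of the list reached 0.73 at the other end, with a median of −0.47. The list's summed level was 756 to 911 CPM across Control libraries and 509.6 to 767 CPM across treated ones. Under library totals 7 of the 13 fell. Microglial Aif1, Cx3cr1, Ptprc and Trem2 and the mesenchymal Dcn and Lum had no count, although Cd68, a lysosomal protein of macrophages and other cells, rose from 1.27, 2.38 and 0.928 CPM to 10.9, 8.95 and 6.23 CPM (2.5, SE 0.39). The part of a shift in cell types in the changes above was not tested.

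Neural stem cell genes split as well, with 8 of 12 rising and 2 falling, where 27.1% and 30.4% of all genes did. The list median was 0.56 and its range −2.37 to 4.75, and under library totals 6 rose and 2 fell. Hes1, a Notch target, was at 0.862, 0.292 and 0.603 CPM in Control and 14.98, 18.4 and 14.4 CPM in TDP-43 + EA + Eda (4.75, SE 0.39), and Id2, an inhibitor of bHLH factors, went from 48.7, 65.5 and 35.6 CPM to 388, 444 and 323 CPM (2.94, SE 0.23).

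**Figure D4:**
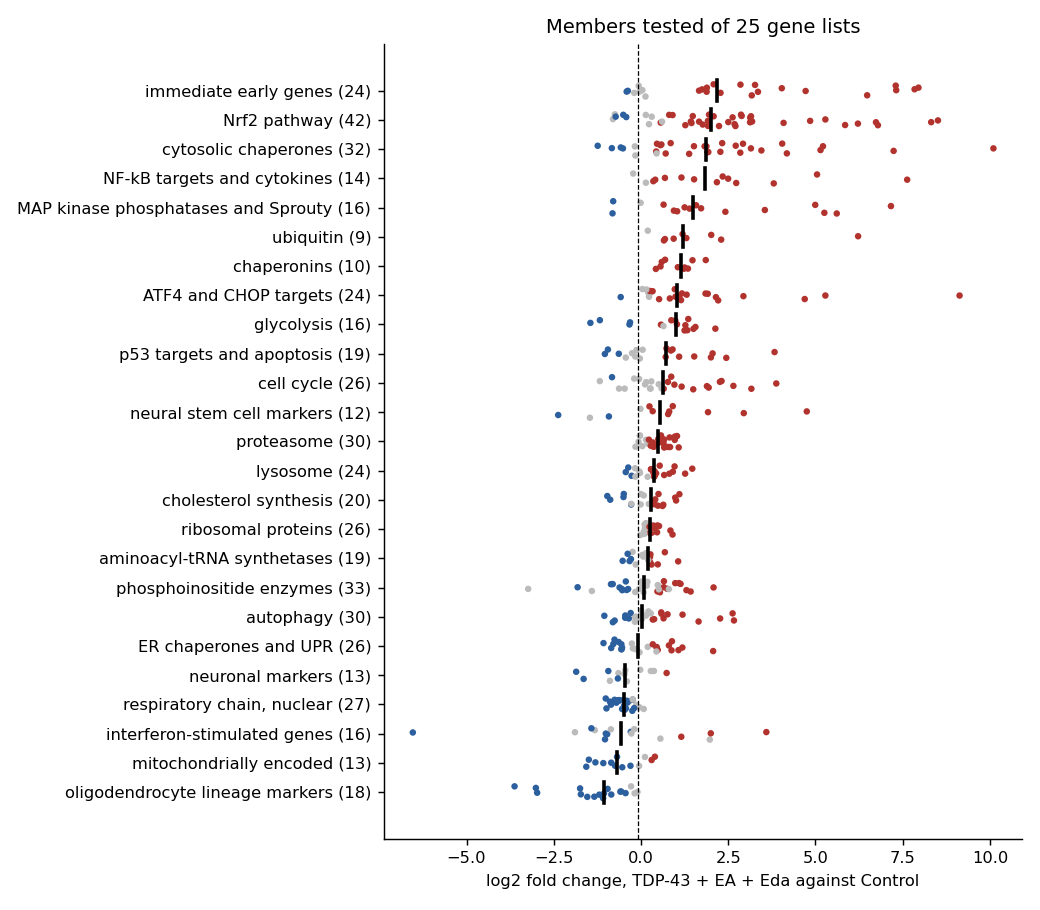
Log2 fold changes, TDP-43 + EA + Eda against Control, of the members tested in 25 gene lists, with the number tested in brackets, 1 point per gene, red for genes that rose, blue for genes that fell and grey for genes that did not pass the test. Black bars mark each list's median, from 2.18 in the immediate early genes to −1.07 in the oligodendrocyte lineage, and the dashed line marks −0.08, the median of all genes tested.

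Outside the lists, the largest rises among genes with at least 50 counts included Sdcbp2, a syntenin with PDZ domains, at 0, 0.0417 and 0.0464 CPM in Control and 23.1, 22.03 and 22.6 CPM in TDP-43 + EA + Eda (9.37, SE 0.61, edgeR adjusted p = 1e-08), St8sia1, the sialyltransferase that makes ganglioside GD3, from 0.0821, 0 and 0 CPM to 14.9, 8.68 and 9.90 CPM (8.37, SE 0.85), and Bub1b, a kinase of the spindle checkpoint, from 0, 0 and 0.186 CPM to 12.7, 16.5 and 16.1 CPM (7.9, SE 0.72). Each was at 0.19 CPM or less in every Control library. At 91 genes Control had no count and TDP-43 + EA + Eda a mean of at least 10 counts, and the reverse held at 26. The most abundant of the 91 were Tmprss11g at 4.76, 3.14 and 4.15 CPM (at least 31.1-fold higher with Control set to 3 counts per library), Trim72 at 2.72, 3.27 and 2.25 CPM (21.3-fold by the same floor), Gpr3 (17.9-fold), Ampd1 (14.6-fold), Ebpl (14.04-fold) and Tex19.2 (13.1-fold). All of them lie at low levels, and the folds are lower bounds.

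The largest falls reached lower levels. Abca8, a lipid transporter of oligodendrocytes and other cells, was at 3.24, 2.84 and 1.07 CPM in Control and without any count in the treated libraries, at least 15.5-fold lower at 3 counts per library. Ctxn3 (−6.8, SE 1.0), Pcare (−5.02, SE 0.74), Lrfn3 (−4.68, SE 0.45) and Nrip2 (−4.59, SE 0.46) stayed at or under 0.63 CPM in every TDP-43 + EA + Eda library. At higher levels Tppp3, a tubulin polymerization-promoting protein, was at 48.4, 49.7 and 39.3 CPM in Control and 3.00, 1.87 and 2.61 CPM in TDP-43 + EA + Eda (−4.15, SE 0.28, edgeR adjusted p = 1.4e-08), and Htra3, a secreted serine protease, went from 14.04, 26.7 and 15.4 CPM to 0.715, 1.202 and 0.534 CPM (−4.55, SE 0.46). All 12 of the largest falls were also lower than in TDP-43 + EA by the direct test, which shares the libraries whose low values picked them, as in Lrfn3 (−3.4, SE 0.46, edgeR adjusted p = 0.00011).

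The falls of smallest p were in moderately expressed genes with little spread. Rnf26, a ubiquitin ligase of the endoplasmic reticulum membrane, was at 63.2, 72.6 and 76.9 CPM in Control and 14.4, 13.3 and 12.1 CPM in TDP-43 + EA + Eda (−2.41, SE 0.12, edgeR adjusted p = 8.9e-10), and Wdr6, a WD-repeat protein of tRNA modification, went from 527, 586 and 571 CPM to 127, 141 and 132 CPM (−2.07, SE 0.09, 2.1e-10). Alg6, a glucosyltransferase of N-glycan assembly, was at 79.1, 82.6 and 86.5 CPM in Control, 78.6, 72.7 and 83.3 CPM in TDP-43 + EA and 26.4, 27.6 and 25.97 CPM in TDP-43 + EA + Eda. Its fall from Control (−1.63, SE 0.09, edgeR adjusted p = 1.8e-09) was matched by the direct difference from TDP-43 + EA (−1.55, SE 0.09, 4.6e-07), and the cells without edaravone lay near Control (−0.08, edgeR adjusted p = 0.49).

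Of 31 genes named by the study, 20 came from its analysis of these groups, so their directions here are not independent evidence. The other 11 came from its comparison of TDP-43-expressing with control cells, and no library here had the virus without ethacrynic acid. Whether that comparison used the same Control libraries is not stated, so the 11 are not taken as independent evidence either. Among the 31, 17 were higher and 5 lower in TDP-43 + EA + Eda than in Control, and only 2 were lower without TDP-43 + EA + Eda replicate 3. Alpl, alkaline phosphatase, was at 2.38, 3.34 and 2.69 CPM in Control, 12.2, 6.42 and 5.50 CPM in TDP-43 + EA and 3.00, 3.14 and 3.08 CPM in TDP-43 + EA + Eda, so that TDP-43 + EA was the highest. Nup43, a nuclear pore protein, was at 12.3, 7.47 and 7.75 CPM in Control, 18.8, 18.3 and 17.7 CPM in TDP-43 + EA and 11.7, 7.81 and 8.01 CPM in TDP-43 + EA + Eda. Ptgds, prostaglandin D synthase, was lowest in TDP-43 + EA, at 2.92, 3.54 and 4.94 CPM, with 8.13, 10.1 and 8.36 CPM in Control and 7.70, 10.6 and 7.06 CPM in TDP-43 + EA + Eda. For these genes TDP-43 + EA + Eda overlapped Control, with log2 fold changes of 0.13 (SE 0.3), 0.01 (SE 0.21) and −0.07 (SE 0.23) and edgeR adjusted p from 0.74 to 0.97, and differed from TDP-43 + EA by −1.39 (SE 0.3, edgeR adjusted p = 0.0029), −0.98 (SE 0.21, 0.0031) and 1.15 (SE 0.24, 0.0022).

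Others of the 31 differed from Control. Nefl, the light neurofilament chain, was at 33.5, 29.1 and 48.2 CPM in Control, 67.6, 36.2 and 103 CPM in TDP-43 + EA and 9.93, 10.4 and 15.3 CPM in TDP-43 + EA + Eda, a log2 fold change from Control of −1.64 (SE 0.34, edgeR adjusted p = 0.00073). The metallothionein Mt1, which binds zinc, was at 13.5, 14.2 and 13.04 CPM in Control, 30.8, 23.7 and 21.1 CPM in TDP-43 + EA and 9.38, 10.2 and 6.17 CPM in TDP-43 + EA + Eda (−0.66 against Control, SE 0.2, edgeR adjusted p = 0.012), but this fall was not called without TDP-43 + EA + Eda replicate 3 (−0.48; 0.059). Plcg2, a phospholipase C, was at 13.3, 12.3 and 13.04 CPM in Control, 3.55, 4.93 and 3.73 CPM in TDP-43 + EA and 10.3, 8.35 and 6.46 CPM in TDP-43 + EA + Eda, lower than Control (−0.61, SE 0.2, edgeR adjusted p = 0.016) and likewise not called without that library (−0.46; 0.075). Acsl6, an acyl-CoA synthetase of the brain, fell from 11.1, 9.97 and 8.40 CPM to 1.02, 0.868 and 0.534 CPM (−3.56, SE 0.29), with 4.23, 4.11 and 3.54 CPM in TDP-43 + EA.

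The composition of the libraries moved with these changes. The 10 most abundant genes took 9.26% of counts in Control (SD 0.475, n = 3) and 12.5% in TDP-43 + EA + Eda (SD 1.02, n = 3), and the cytosolic chaperone rows with LOC108348108 and LOC680121, a row similar to Hspa8, took 0.742% (SD 0.000902) and 6.55% (SD 1.27). Mbp and the other myelin genes of the list took 5.59% (SD 0.609) and 2.42% (SD 0.363). In each of these shares the groups did not overlap, and an exact permutation test gave p = 0.1, the smallest that 3 against 3 allows. Of 8 genes in common use as references for quantitative PCR, 6 rose and 2 fell, where 27.1% and 30.4% of all genes did. Under library totals 4 rose and 2 fell. B2m, of the class I complex, was at 179, 167 and 159 CPM in Control and 402, 434 and 385 CPM in TDP-43 + EA + Eda (1.27, SE 0.08), and Actb, beta actin, went from 5392, 5160.0 and 5389 CPM to 3308, 3497 and 3596 CPM (−0.62, SE 0.08). Ppia was the nearest to Control (0.22, SE 0.07; −0.10 under library totals).

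Edaravone alone gave no DEG and no gene at an adjusted p of at most 0.05 against Control in edgeR. Of 13230 genes 539 had an unadjusted p under 0.05, a share below that cutoff itself. Set against Eda in place of Control, TDP-43 + EA + Eda had 1643 DEGs higher and 1527 lower. For Hmox1 that difference was 8.46 (SE 0.2, edgeR adjusted p = 3.6e-13), and for Mbp −0.64 (SE 0.13, 0.00051). TDP-43 + EA had 991 DEGs higher and 572 lower than the same Control libraries, and TDP-43 + EA + Eda had 251 higher and 523 lower than TDP-43 + EA.

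**Figure D5:**
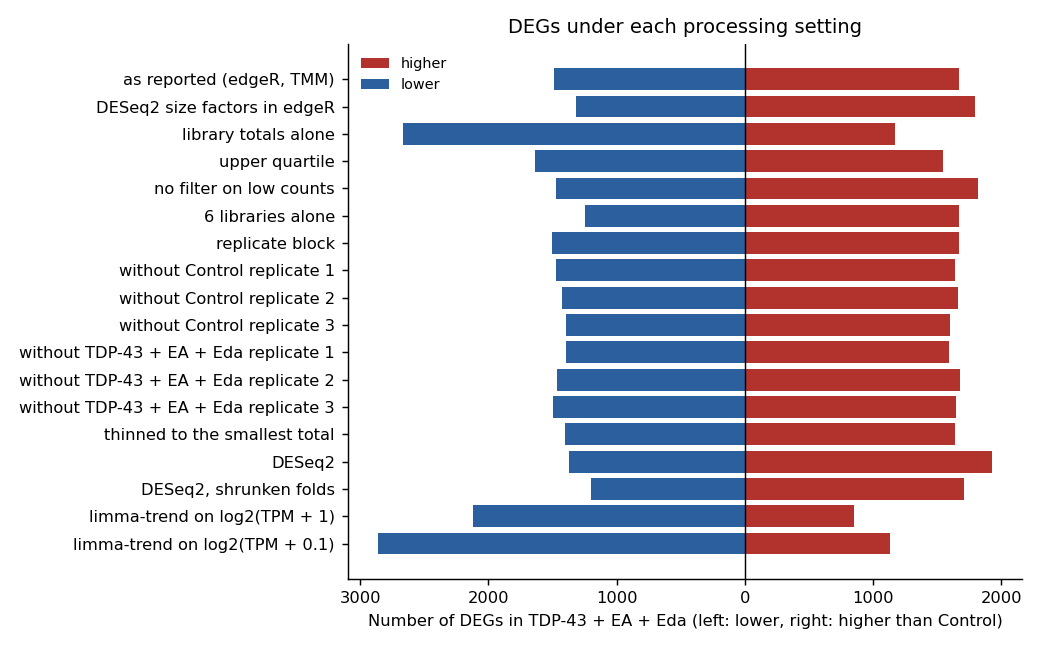
Number of DEGs, TDP-43 + EA + Eda against Control, under each processing setting, with higher genes as bars to the right and lower genes as bars to the left of 0. The counts run from 849 to 1926 higher and from 1202 to 2860 lower, and lower genes outnumber higher ones under library totals and upper quartile scaling and on the authors' TPM.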

How the data were processed

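The authors sequenced RNA of 1464R cells after SMART-Seq v4 amplification from 1.0 ng (13 cycles) and Nextera XT (12 cycles) as 150-base pairs, aligned and quantified it with DRAGEN 3.6.3 on Rnor_6.0 with Ensembl 101, and deposited expected counts, not normalized, and TPM. Amplification without molecular identifiers can widen the spread of low genes. Expected counts were rounded, filtered with filterByExpr, scaled by TMM and fitted over all 12 libraries with edgeR 4.0.16 (R 4.3.3; quasi-likelihood), with contrasts between groups. TPM deposited by the authors served as an alternative with limma 3.58.1, and DESeq2 1.42.0 as another, beside other scalings, no filter, thinning to the smallest total, a replicate block and leaving out each library. Gene sets were described by counts and medians without set tests. Genes named were Tardbp, the 12 DEGs of largest change per direction with 50 counts or more in the higher group and no overlap, the 6 members of smallest p per list with those against its majority, the study's genes, the 10 highest TPM per group, the 6 most abundant genes without a count in the other group, and the 6 of smallest p per direction; other list members were named after their values were seen. The members and lists were chosen with earlier results of these data known. The fit was checked on simulated counts. Of 701 list symbols 16 were not found. Some genes are not reported here.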

Additional observations from a re-analysis of the deposited data

How the results depend on the processing

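The scale decided the balance of directions. DEGs numbered 1673 higher and 1485 lower as reported, 1792 and 1316 with DESeq2 size factors in edgeR, 1926 and 1369 with DESeq2, 1546 and 1638 with upper quartile scaling, and 1173 and 2666 with library totals alone. With shrunken fold changes from DESeq2, the kind the study used, they numbered 1707 and 1202. On the authors' TPM, limma gave 849 and 2121 with a pseudocount of 1 and 1133 and 2860 with 0.1. Without a fold minimum 3581 genes were higher and 4027 lower. Leaving out each library in turn gave 1590 to 1676 higher and 1397 to 1495 lower. The labels do not say whether a replicate number marks a shared experiment. Deviations of Control and TDP-43 + EA + Eda libraries of the same number correlated by 0.066, 0.072 and 0.027, those of different numbers by −0.063 to −0.002, and each library correlated best with its own number, a hint from the data. With the replicate number as a block 1667 genes were higher and 1508 lower, no named gene lost its call, and S100b gained one (−0.32). Single genes that turned direction were Aars (log2 fold change 0.30; −0.016 with library totals, −0.057 and −0.058 on TPM with pseudocounts of 1 and 0.1), Mt-co1 (0.30; −0.012, −0.083 and −0.083), Rpl23 (−0.024 and −0.024 on TPM) and Tnfrsf19 (0.04; −0.404 and −0.413 on TPM), and the cause was not tested. List medians near 0 turned negative with library totals for aminoacyl-tRNA synthetases (0.21 to −0.11), ribosomal proteins (0.26 to −0.07), cholesterol synthesis (0.29 to −0.03), phosphoinositide enzymes (0.09 to −0.23), ion channels (0.01 to −0.31) and autophagy (0.02 to −0.30).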

Other observations

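Autophagy genes moved in both directions. Of 30 tested 11 rose and 7 fell (list median 0.02), shares not far from the 27.1% and 30.4% of all genes. There were 4 rises and 1 fall among 7 receptors, 3 rises and no fall among 5 genes of the Atg8 family, and 4 rises and 6 falls among 18 core genes. Sqstm1 (p62), a receptor for ubiquitinated cargo that also binds Keap1, was at 1148, 1012 and 1058 CPM in Control and 6055, 6544 and 7249 CPM in TDP-43 + EA + Eda (2.62, SE 0.1, edgeR adjusted p = 4e-11), and the ubiquitin receptor Optn went from 32.8, 39.8 and 37.3 CPM to 115, 107 and 123 CPM (1.65, SE 0.16). Atg7, the activating enzyme of the conjugation system, fell from 94.1, 83.6 and 89.1 CPM to 38.9, 40.9 and 49.3 CPM (−1.05, SE 0.11). Under library totals 15 of the 30 fell, and without Control replicate 2 only 4 did. Of 24 lysosomal genes 16 rose and 3 fell, beside the same shares of all genes, but 7 rose and 7 fell under library totals. Without Control replicate 3 or TDP-43 + EA + Eda replicate 1, 1 fell. Ctsd, cathepsin D, went from 535, 563 and 586 CPM to 1216, 1470.4 and 1359 CPM (1.26, SE 0.09).

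Of 19 p53 targets and apoptosis genes tested 10 rose and 3 fell, where 27.1% and 30.4% of all genes did. Under library totals 7 rose and 5 fell. Gadd45g, a stress sensor of the Gadd45 family, was at 161, 103 and 108 CPM in Control and 2099, 1546 and 1637 CPM in TDP-43 + EA + Eda (3.83, SE 0.19, edgeR adjusted p = 6.6e-10). Cdkn1a (p21), an inhibitor of cyclin-dependent kinases, was at 58.9, 51.8 and 58.9 CPM in Control, 63.6, 47.8 and 50.6 CPM in TDP-43 + EA and 119.5, 105 and 137 CPM in TDP-43 + EA + Eda, and the last exceeded TDP-43 + EA by 1.16 (SE 0.12, edgeR adjusted p = 1.9e-05). Of 26 cell cycle genes 13 rose and 1 fell, beside the same shares of all genes. The fall was that of Cdc20 (−0.83, SE 0.3). Its call was lost without Control replicate 1 or 3, without TDP-43 + EA + Eda replicate 1 or 2, and with the 6 libraries fitted alone. Ccnd1, cyclin D1, rose (2.65, SE 0.14), while Cdk1, the mitotic kinase, stayed under 1 CPM in the 6 libraries and did not pass the test (0.12, SE 0.6, edgeR adjusted p = 0.88).

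Among 15 genes linked to amyotrophic lateral sclerosis or stress granules 10 rose and 1 fell, a count that includes Tardbp itself. Of all genes 27.1% rose and 30.4% fell. Under library totals 7 rose and 3 fell (list median 0.35 to 0.03), and on TPM with a pseudocount of 1, 6 rose and 3 fell (list median −0.007). Sod1, superoxide dismutase 1, was at 100.6, 94.3 and 90.3 CPM in Control and 506, 568 and 466 CPM in TDP-43 + EA + Eda (2.43, SE 0.1, edgeR adjusted p = 1.7e-10). Of 20 genes of cholesterol synthesis and uptake 10 rose and 5 fell, beside the same shares of all genes. Under library totals 3 rose and 8 fell, and 6 rose without Control replicate 2. The higher DEGs had a median level of 9.80 CPM in Control and the lower ones 14.6 CPM, against 26.03 CPM for the other genes tested, and the median transcript lengths of the groups were 2380, 2214 and 2293.5 bases.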
